A study of Mus musculus with 12 samples.

Results

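Histone genes were described across sorted kidney cells of 4 groups of mice. The members were the rows of the deposited gene table whose symbols begin with Hist1h to Hist4h, H2af, H3f3 or H1f, with 1 symbol ending in -ps left out. A total of 74 of 23378 genes met this rule. They were 60 replication-dependent genes of the histone clusters, 13 variant histone genes and the antisense RNA H3f3aos, which encodes no histone. H2afy3 and H3f3c, counted with the variants, are annotated as processed pseudogenes. Members were thus selected on symbol and on presence in the table, which held only genes with a summed count of at least 10 over the 12 libraries. The lowest member sum was 10.8 for Hist1h2ai, and genes under that sum were not analysed here.

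All mice were C57BL/6 animals of the nNosCreERT2-mTmG line, in which cells that express the neuronal nitric oxide synthase gene and its inducible Cre turn from membrane tdTomato to membrane GFP. Green cells were sorted from digested kidney cortex as macula densa cells, the salt sensors of the tubule beside the glomerulus. Cells with the most intense tdTomato served as control cells and are described in the labels as epithelium of the distal tubule and collecting duct. The mice were kept for 14 days on control diet, or on low salt diet with enalapril, an inhibitor of angiotensin-converting enzyme, at 150 mg/L in the drinking water. There were 4 control-cell and 2 macula densa libraries on each diet, and the labels do not say that the libraries of a group came from separate mice, so p-values cover the spread between libraries, which may be technical. Animal age and the inducing treatment are not given in the labels.

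Total counts ran from 4259034 to 14856540 per library, of which the ribosomal RNA-like gene Gm42418 took 53.5% to 65.0%, and 3 counts were worth 0.231 to 0.734 CPM, the unit of counts scaled to a common library total so that libraries of different depth compare. Nos1, the defining gene of the sort, had 741 to 1360 counts in macula densa libraries and 1 to 8 in control-cell libraries. The red sort was mixed: the summed level of 6 collecting duct markers ran from 111 to 752 CPM among control-cell libraries on control diet, that of 5 podocyte markers from 38.6 to 1252 CPM and that of 6 endothelial markers from 39.4 to 1243 CPM. Podocyte and endothelial markers are outside the labelled cell type, so the control cells are called by their sort below. The green sort held signal of other cells too: on control diet the 6 proximal tubule markers summed to 110 and 184 CPM in macula densa libraries against 32.0 to 76.2 CPM in control-cell libraries, and podocyte and endothelial markers to 138 and 144 CPM in macula densa replicate 1 against 14.9 and 19.5 CPM in replicate 2.

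Histones are the proteins around which DNA is wound: H2A, H2B, H3 and H4 form the core of the nucleosome, and H1 binds the linker DNA between nucleosomes. The replication-dependent genes lie in clusters, are transcribed mainly in S phase and give mRNAs that end in a conserved stem-loop in place of a poly(A) tail. The stem-loop is bound by the stem-loop binding protein and is cut with the help of the U7 small nuclear ribonucleoprotein. Variant histones such as H3.3 (H3f3a and H3f3b) and H2A.Z (H2afz) are made outside S phase as well, from single genes with ordinary polyadenylated mRNAs, and some cluster genes also yield polyadenylated forms in cells that do not divide. Of the 60 cluster genes here, 48 lay on chromosome 13, 9 on chromosome 3, 2 on chromosome 11 and 1 on chromosome 6.

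The stem-loop was searched as the letters GGNNCTTTTNAGNNCC in GENCODE M21 transcripts, since it is the feature that sets the 2 classes apart. It was held by 40 of 60 cluster genes and by 1 of 13 variants, H2afx, against 0.329% of 21877 protein-coding genes (72 genes, 41 of them members). Several cluster genes without these letters are annotated with little beyond their coding sequence, so their 3' end could not be searched. Hist1h2ai has 393 annotated bases and a coding length of 390, and Hist1h4k has 312 and 309. The count of 40 is thus a lower bound. The sites of 4 cluster genes and of H2afx are shown with the stem-loop in capitals, as the sense strand of the transcript in DNA letters.
Hist1h1c: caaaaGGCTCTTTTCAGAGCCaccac
Hist1h1e: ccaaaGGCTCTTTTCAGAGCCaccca
Hist2h2aa2: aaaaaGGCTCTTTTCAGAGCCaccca
Hist1h4d: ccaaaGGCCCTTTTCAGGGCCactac
H2afx: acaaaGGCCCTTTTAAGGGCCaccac
The first form was shared by 23 genes of the H1, H2A, H2B and H3 families, and the Hist1h4d form by 7 genes, all of the H4 family. In 19 cluster genes an annotated transcript ran more than 100 bases past the stem-loop, as in Hist1h1c, where it ran 840 bases on. The annotated transcript of Hist1h2bc, an H2B gene on chromosome 13 at 23684199 to 23692908 (GRCm38, plus strand, 2 exons), did not hold these letters.

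Hist1h2bc and the H2A gene Hist1h2ac are divergent neighbours whose annotated start sites lie 250 bases apart. The window of RefSeq (GRCm38.p6) around the Hist1h2ac start, chr13:23683910-23684209 on the minus strand, covers both start sites and is shown because Hist1h2bc carries the main result below. Capitals mark a TATAAA, which 13.6% of 32851 promoters of this length hold, 3 matches to CCAAT on either strand (ATTGG), held by 37.4%, and the octamer ATGCAAAT, held on either strand (ATTTGCAT) by 1.74%.
Hist1h2ac promoter: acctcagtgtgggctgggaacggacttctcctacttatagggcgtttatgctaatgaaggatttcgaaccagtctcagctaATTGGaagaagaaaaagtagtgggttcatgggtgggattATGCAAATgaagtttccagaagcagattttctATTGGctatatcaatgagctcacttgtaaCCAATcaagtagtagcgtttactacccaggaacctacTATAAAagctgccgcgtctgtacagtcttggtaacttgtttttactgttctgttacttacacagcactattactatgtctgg
These matches describe the window only.

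Reads from cluster genes could often not be given to 1 gene. The table held estimated counts, and 80.4% of the values of cluster genes were not exactly whole numbers, against 35.3% for variants and 16.1% over all genes. Many of these values lay very near a whole number: more than 0.01 away from one were 62.9%, 33.3% and 12.7%. A value that is not exactly whole was found in 57 of 60 cluster genes and in 6 of 13 variants. The share of a gene's 50-base windows that occurs in no other annotated gene had a median of 50.6% over the cluster genes and 93.9% over the variants. Values of single cluster genes are therefore uncertain where copies are alike, and 2 genes with identical coding sequence (402 bases), Hist1h2bq and Hist1h2br, had the same value to 3 decimals in 11 of 12 libraries. Hist2h2aa2, the H2A gene with the highest level per length, had no window of its own (0%), because Hist2h2aa1 and Gm20634 hold the same letters. Hist1h2bc had 69.9% of windows of its own, Hist1h1c 91.5%, H3f3a 87.7% and H3f3b 93.1%.

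The first 60 coding bases show how close the H2B copies are to Hist1h2bc, with capitals where a sequence differs from one of those it is set beside: Hist1h2bc against both copies, each copy against Hist1h2bc.
Hist1h2bc: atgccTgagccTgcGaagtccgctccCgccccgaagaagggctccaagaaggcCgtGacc
Hist1h2be: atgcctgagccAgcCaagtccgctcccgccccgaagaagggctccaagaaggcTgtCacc
Hist1h2bg: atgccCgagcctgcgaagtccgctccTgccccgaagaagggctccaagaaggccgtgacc
Over the whole coding sequence of 378 bases, Hist1h2be differed from Hist1h2bc at 6 bases and Hist1h2bg at 5. The 2 genes of histone H3.3 are less alike in sequence, with 95 of 408 coding bases that differ, and the same stretch of each shows this.
H3f3a: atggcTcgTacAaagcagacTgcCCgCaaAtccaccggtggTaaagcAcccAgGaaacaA
H3f3b: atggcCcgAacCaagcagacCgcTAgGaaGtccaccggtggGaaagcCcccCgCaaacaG
Hist1h1e and Hist1h2be overlap on the same strand, and H3f3a overlaps the antisense gene H3f3aos. Whether counting used strand is not stated, and without strand reads of H3f3aos and H3f3a cannot be told apart. H3f3aos had 0 to 11 counts per library.

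**Figure D1:**
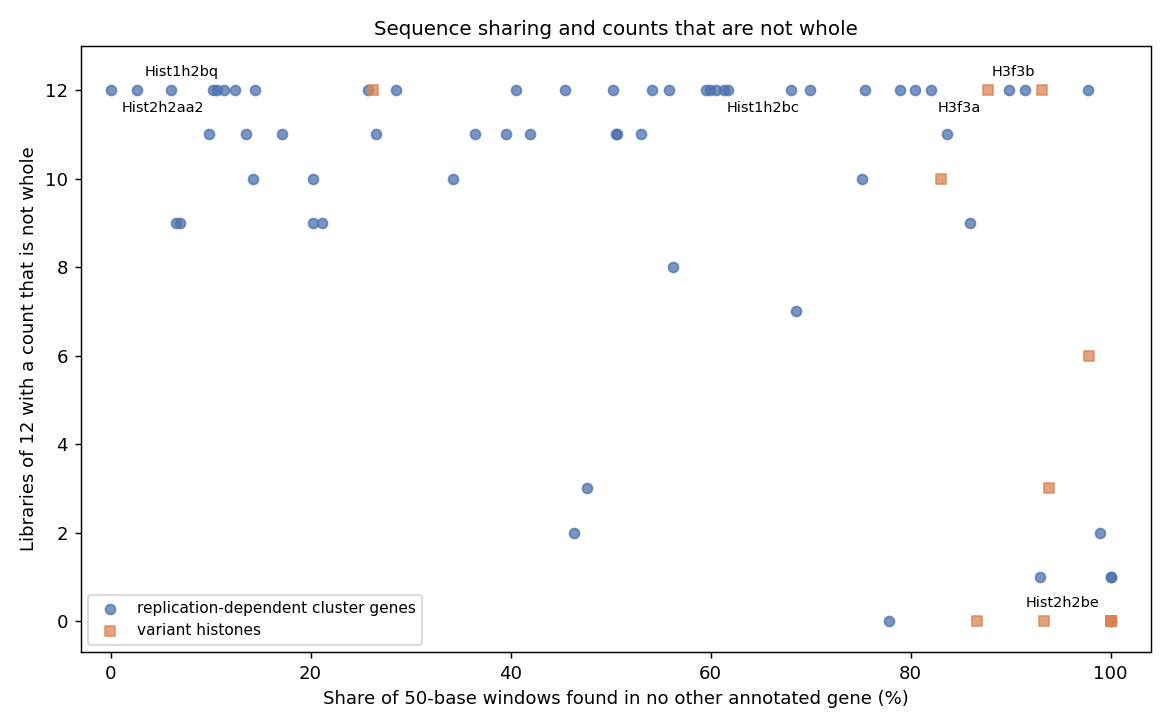
Share of a gene's 50-base windows found in no other annotated gene (x axis, %) against the number of the 12 libraries in which its deposited count was not exactly whole (y axis), for 60 cluster genes (circles) and 13 variants (squares). Most cluster genes sit at the top over the whole x range, while variants without values that are not whole sit at the lower right.

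A few genes carried most of the cluster signal. Per kilobase of annotated exon, mean levels over the 12 libraries were 63.3 CPM for Hist2h2aa2, 39.1 for the linker histone gene Hist1h1c (histone H1.2), 16.0 for Hist1h4h, 15.9 for Hist1h1e (histone H1.4) and 9.26 for Hist1h2bc. Among variants, H3f3b stood at 19.6 CPM per kilobase, H1f0, the linker histone of cells that have stopped dividing, at 16.9 and H3f3a at 10.4. Without length, Hist1h1c, Hist2h2aa2, Hist1h1e, Hist1h2bc and Hist1h4d together made up 61.6% to 81.7% of the summed cluster CPM of a library. At the other end, 31 cluster genes and 2 variants were too low to test, with at most 26 and 12 counts in any library. All cluster members that code for H3 were low, with summed levels of 1.89 to 8.46 CPM per library, against 72.2 to 136 CPM for the 2 H3.3 genes together in macula densa cells and 79.5 to 112 CPM in control cells. These sums are not corrected for length and overstate the gap. Annotated exons spanned 411 to 1261 bases in the H3 cluster genes, against 3504 for H3f3a and 2976 for H3f3b. Per kilobase, the highest H3 cluster gene was Hist1h3e at 1.53 CPM. Of the 74 members, 41 passed the filter on low counts: 29 cluster genes, 11 variants and H3f3aos.

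**Figure D2:**
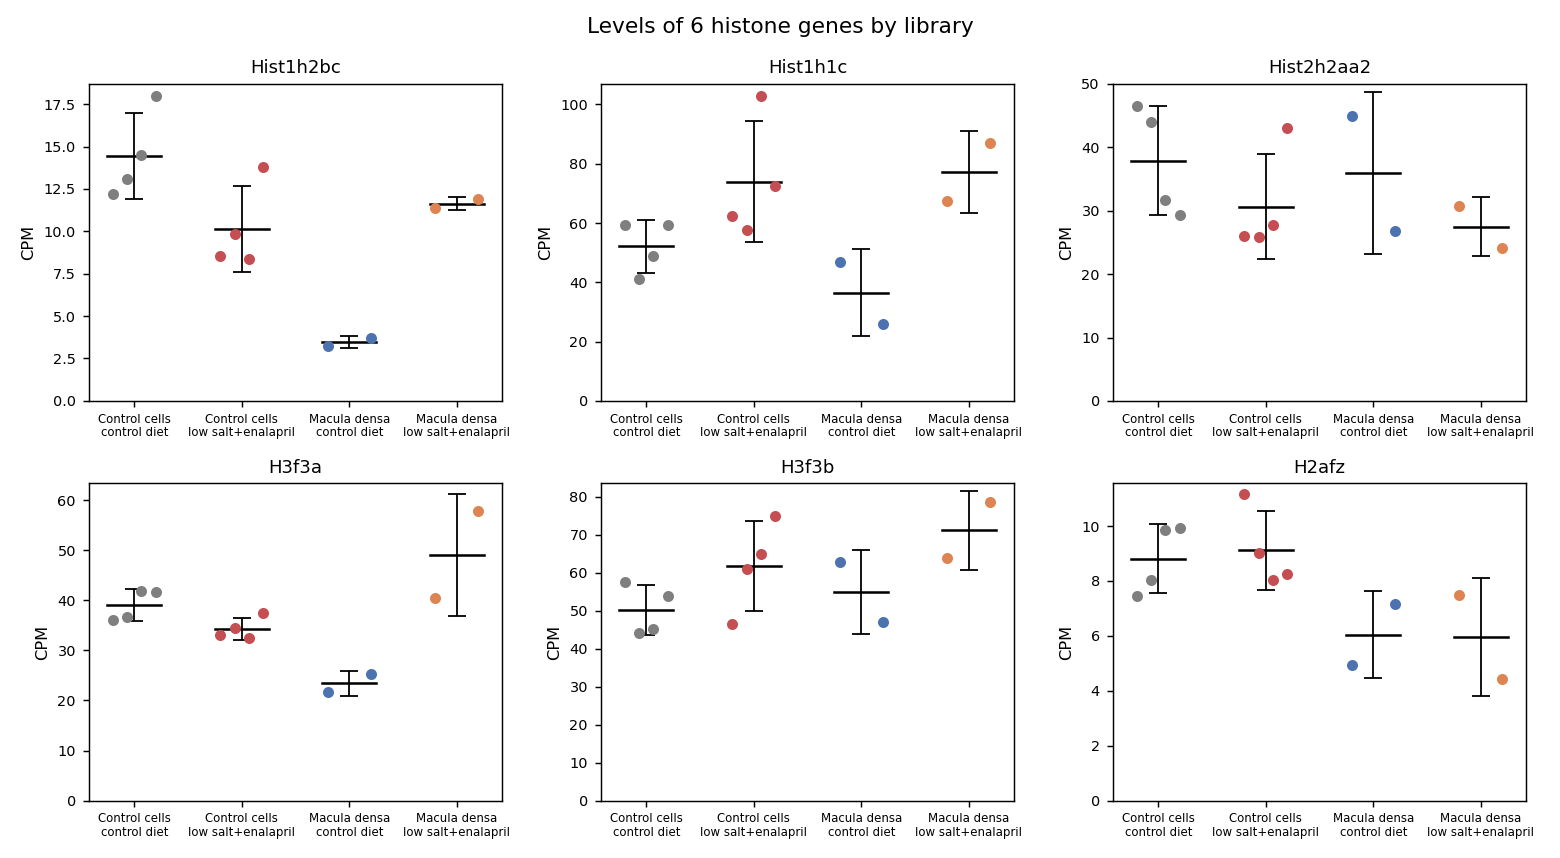
CPM (TMM-scaled, y axis) of 3 cluster genes (upper row) and 3 variants (lower row) in the 4 groups (x axis); points are libraries, lines are means and bars are SDs. The Hist1h2bc level was 3.23 and 3.72 CPM in macula densa cells on control diet, below every other library.

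On control diet the 2 cell populations were compared to ask whether they differ in histone mRNA at baseline. Hist1h2bc was lower in macula densa cells and was the member that passed the test. Its level was 3.23 and 3.72 CPM in macula densa libraries and 12.2, 13.1, 14.5 and 18.0 CPM in control-cell libraries. The groups did not overlap: both macula densa libraries lay well under every control-cell library. The counts behind these levels were 31.5 and 45.7 against 112 to 174. The log2 fold change was -2.05 (SE 0.28, edgeR adjusted p = 0.00181). The gene had been singled out on the diet contrast of macula densa cells, which uses these same 2 macula densa libraries. This test is therefore not independent of that choice. There was 1 member called lower and 0 called higher among the 41 tested, while of all 14180 genes tested 6.61% were called, 3.92% lower and 2.69% higher, so the share of members called was not above that of all genes. At an unadjusted edgeR p under 0.05 there were 5 members lower and 1 higher, where 15.6% and 8.67% of all genes were. Of the 6 proximal tubule markers 1 was called higher in macula densa cells in the same comparison, and 0 of the 5 podocyte and 6 endothelial markers were called, with sums that overlap as given above; their part in the result was not tested.

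H3f3a, one of the genes of histone H3.3, which replaces H3 in transcribed chromatin, was also under all control-cell libraries on control diet. It stood at 21.6 and 25.2 CPM in macula densa libraries and at 36.0, 36.6, 41.9 and 41.7 CPM in control-cell libraries. The groups did not overlap, but the log2 fold change of -0.74 (SE 0.20) missed the threshold (edgeR adjusted p = 0.0509). The second H3.3 gene, H3f3b, encodes the same protein and overlapped between the groups: it stood at 62.8 and 47.0 CPM against 57.6, 44.1, 45.0 and 53.9 CPM, with a log2 fold change of 0.13 (SE 0.23, edgeR adjusted p = 0.794). The 2 genes summed to 72.2 and 84.4 CPM in macula densa libraries and 80.8 to 95.6 CPM in control-cell libraries, which overlap. With its near copy H3f3c added, H3f3a stood at 22.4 and 26.5 CPM against 37.7 to 43.8 CPM, so the gap was as wide over the pair.

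H2afz, the gene of H2A.Z, was below all control-cell libraries on both diets on the CPM scale, without passing the test. Its CPM level on control diet was 4.92 and 7.16 CPM in macula densa libraries and 7.44, 8.04, 9.84 and 9.92 CPM in control-cell libraries. On low salt with enalapril it was 7.48 and 4.43 CPM against 11.2, 9.02, 8.03 and 8.26 CPM. The log2 fold change averaged over both diets was -0.58 (SE 0.20, edgeR adjusted p = 0.0582).

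The abundant linker histone genes and Hist2h2aa2 overlapped between the cell populations at baseline. Hist1h1c stood at 46.9 and 26.1 CPM in macula densa libraries against 59.4, 41.0, 49.0 and 59.3 CPM, a log2 fold change of -0.52 (SE 0.31, edgeR adjusted p = 0.330). Hist2h2aa2 stood at 45.0 and 26.9 CPM against 46.5, 44.0, 31.7 and 29.4 CPM. For Hist1h1e the 2 macula densa libraries, at 35.6 and 17.1 CPM, lay on both sides of the 4 control-cell libraries at 26.4 to 29.6 CPM. H1f0 (35.8 and 26.1 CPM against 29.4 to 46.9) and H2afy, the gene of macroH2A1 (20.3 and 18.7 CPM against 17.3 to 18.2), had edgeR adjusted p-values of 0.717 and 0.755.

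As a class, the 29 cluster genes tested had 10 log2 fold changes above 0 and 19 below it on control diet, with a median of -0.11, and the 11 variants had 3 above and 8 below, with a median of -0.32. The median over all genes tested was -0.05. Without overlap between the groups on the CPM scale, 2 members were higher in macula densa cells (H2afy and Hist2h2be) and 9 lower (H2afy2, H2afz, H3f3a, Hist1h1b, Hist1h2ac, Hist1h2bc, Hist1h3f, Hist1h3i and Hist2h3b). Over all genes these shares were 15.2% and 16.8%. Hist1h1b, Hist1h3i and Hist2h3b were at 0 in both macula densa libraries and passed the filter on low counts only through control cells, so they are listed as a description. Hist1h2ac also passed the filter only through control cells and is listed in the same way. The control-cell counts of Hist1h3i were 15.0, 0.285, 0.139 and 0.003, so its lack of overlap rests on estimates near 0. Hist2h2be, an H2B gene with all windows of its own, was chosen for mention after its values were seen: it stood at 3.69 and 3.83 CPM against 1.34 to 2.86 CPM (log2 fold change 0.90, SE 0.38, edgeR adjusted p = 0.167).

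The gap of Hist1h2bc was still seen when the copies Hist1h2be and Hist1h2bg were added. Hist1h2bj, with 4 coding bases that differ from Hist1h2bc, is nearer than either and is counted only in the sum of all H2B genes. Hist1h2bc, Hist1h2be and Hist1h2bg summed to 13.8 and 11.9 CPM in macula densa libraries and 22.3 to 25.3 CPM in control-cell libraries on control diet. All 18 H2B cluster genes summed to 21.3 ± 1.54 CPM (SD, n = 2) against 33.0 ± 2.40 CPM (SD, n = 4), again without overlap. Without Hist1h2bc, the other 17 summed to 19.1 and 16.5 CPM against 13.0 to 23.4 CPM, which overlap. The non-overlap of the H2B sum thus went with Hist1h2bc.

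Apart from H2B, the sums over families overlapped between the cell populations on control diet. The 60 cluster genes summed in macula densa cells to 171 ± 45.1 CPM (SD, n = 2), against 203 ± 5.87 CPM (SD, n = 4) for the control cells, and the 13 variants to 152 ± 18.0 and 171 ± 15.4 CPM. The 2 macula densa libraries differed from each other by more than the 4 control-cell libraries did, at 203 and 139 CPM for the cluster sum. The second of them was also the lower one for the H1 sum (47.2 against 90.8 CPM) and the H2A sum (35.3 against 62.8 CPM).

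**Figure D3:**
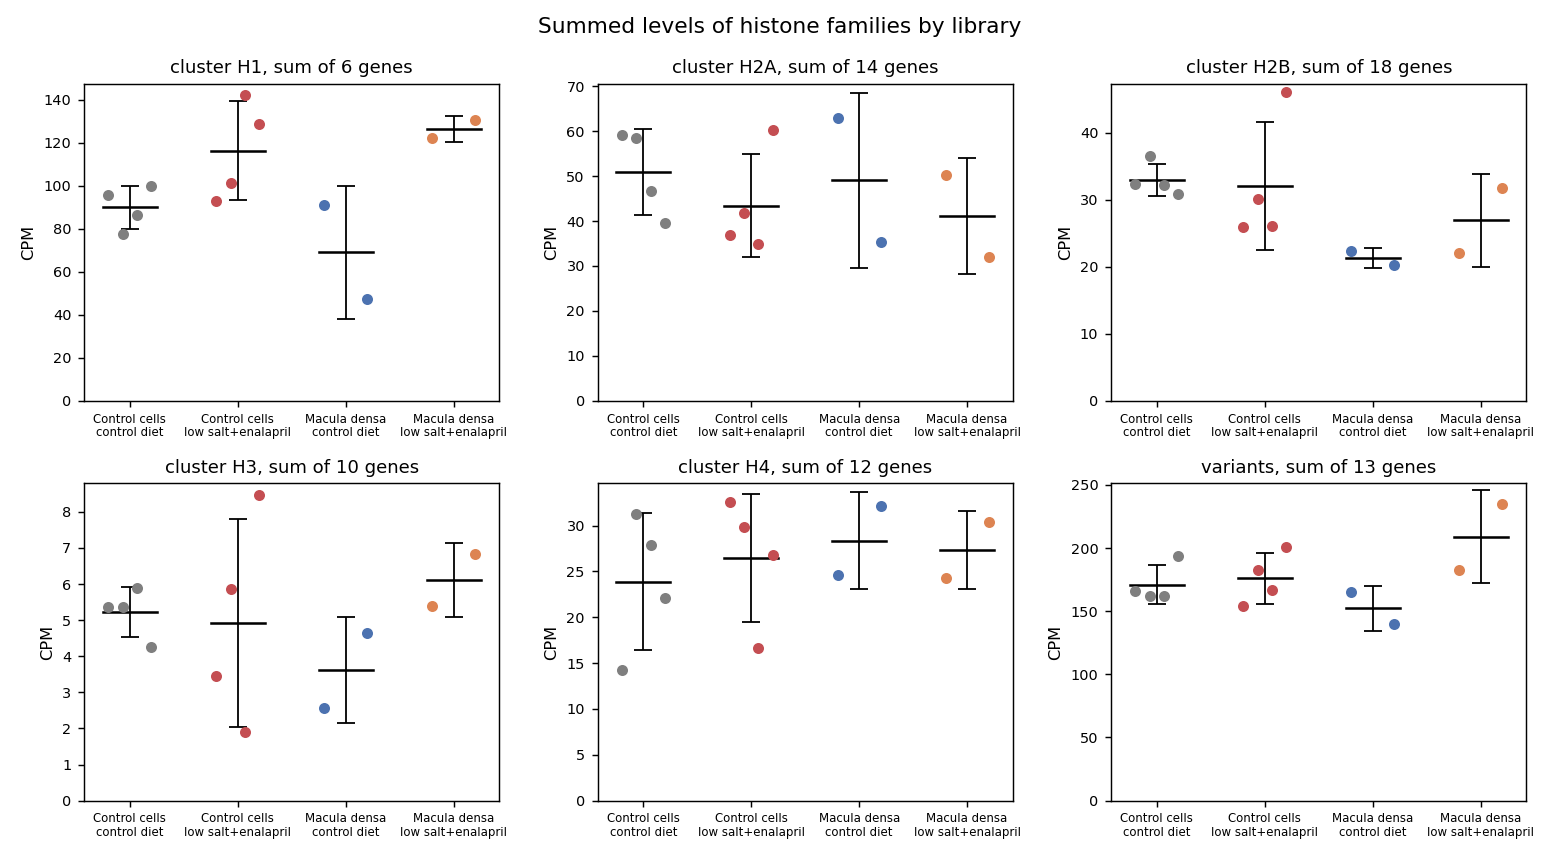
Summed CPM (y axis) of the H1, H2A, H2B, H3 and H4 cluster genes and of the variants in each library of the 4 groups (x axis); points are libraries, lines are means and bars are SDs. The H2B sum of macula densa cells on control diet (21.3 ± 1.54 CPM) was below all control-cell libraries on that diet, while the other sums overlapped between cell populations on control diet.

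On low salt with enalapril no member passed the test between the cell populations, where 7.27% of all genes did (3.15% higher and 4.13% lower). At an unadjusted edgeR p under 0.05 there were 1 member higher and 2 lower (10.3% and 15.0% of all genes). Hist1h2bc stood at 11.4 and 11.9 CPM in macula densa libraries, within the 8.54, 9.84, 8.34 and 13.8 CPM of control-cell libraries. Its log2 fold change was 0.20 (SE 0.26, edgeR adjusted p = 0.673). H3f3a was above the control-cell libraries here, at 40.5 and 57.7 CPM against 33.0, 34.5, 32.4 and 37.4 CPM. That is the opposite order from control diet, and the log2 fold change of 0.52 (SE 0.20) did not pass (edgeR adjusted p = 0.125). Without overlap on this diet on the CPM scale, 3 members were higher in macula densa cells (H1fx, H3f3a and Hist1h4k) and 4 lower (H2afz, Hist1h1b, Hist1h4m and Hist2h2bb), where 15.3% and 19.5% of all genes were. Hist1h4k passed the filter on low counts only through macula densa cells, and Hist1h1b and Hist1h4m only through control cells. Each is high in the cells that let it pass, so these 3 are listed as a description.

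Averaged over both diets, 2 members were called lower in macula densa cells and none higher, against 13.9% and 7.48% of all genes (21.3% in either direction). Without overlap on both diets on the CPM scale, 0 members were higher and 2 lower (H2afz and Hist1h1b), where 6.03% and 7.62% of all genes were. At an unadjusted edgeR p under 0.05 there were 0 members higher and 4 lower, where 13.0% and 21.4% of all genes were. Hist1h2bc had a log2 fold change of -0.93 (SE 0.19, edgeR adjusted p = 0.00566), which averages a low value on control diet with one near 0 on low salt with enalapril. This comparison draws on the macula densa libraries on which Hist1h2bc was singled out, so its call is not independent of that choice. Hist1h1b, the gene of histone H1.5, was at 0 counts in all 4 macula densa libraries and at 1 to 15 counts in control-cell libraries (edgeR adjusted p = 0.0290). It passed the filter on low counts only through control cells, the group where it is high, so the call is given as a description. It was at least 1.07-fold lower, taking 3 counts of the shallowest macula densa library as the floor. That bound is small because the control-cell level was itself only 0.094 to 1.53 CPM. Its call was lost when any 1 macula densa library was left out (edgeR adjusted p from 0.0530 to 0.0747), and the gene was too low to test without control-cell replicate 2 or 4 of low salt with enalapril. With the title number or the description number as replicate block the edgeR adjusted p was 0.0952 and 0.0953.

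**Figure D4:**
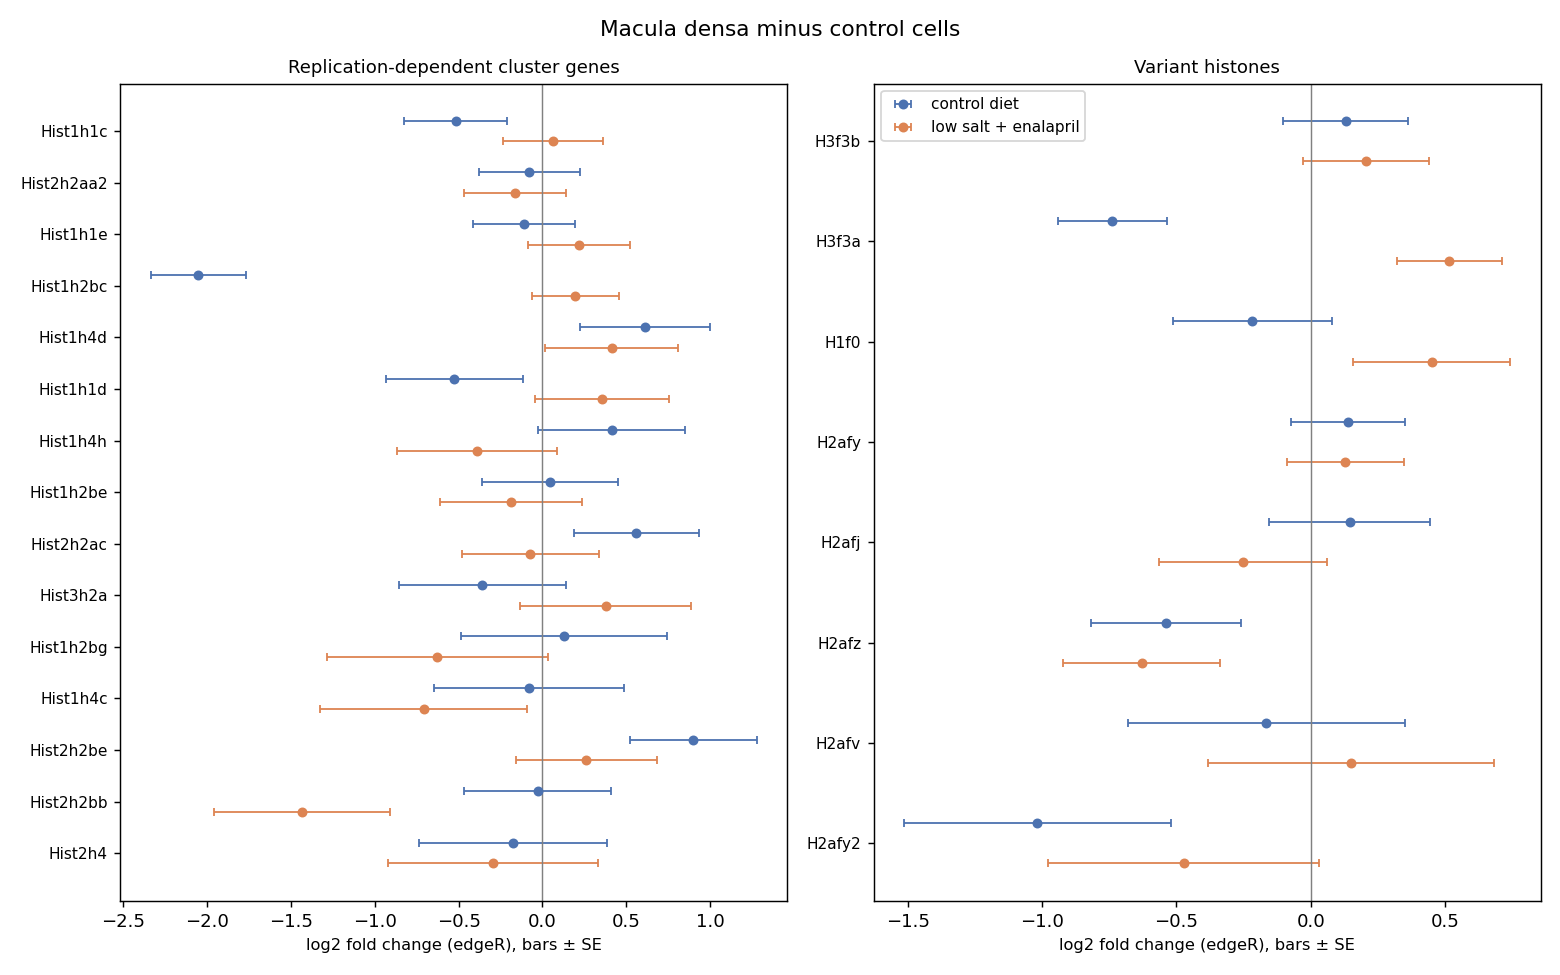
Log2 fold change of macula densa over control cells (x axis, edgeR, bars ± SE) on each diet for the 15 cluster genes (left) and 8 variants (right) with a mean of at least 1.5 CPM, ordered by level. Hist1h2bc at -2.05 on control diet and 0.20 on low salt with enalapril, and H3f3a at -0.74 and 0.52, have the widest gaps between the diets for their SE.

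The diet comparison asked whether low salt with enalapril, which activates the renin system, changed histone mRNA in each cell population. In macula densa cells no member was called and no gene of the table was (0% of 14180). At an unadjusted edgeR p under 0.05 there were 5 members higher and 0 lower, where 5.51% and 5.73% of all genes were higher and lower. Hist1h2bc, which was singled out on this contrast, is among the 5, so the count is a description. Since the cell and diet comparisons share libraries, they are not independent of each other.

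Hist1h2bc was 3.23 and 3.72 CPM in macula densa cells on control diet and 11.4 and 11.9 CPM on low salt with enalapril. The 2 groups lay far apart with little spread within each. The log2 fold change was 1.74 (SE 0.31), given as a description because the gene was singled out on this contrast. In control cells the level went the other way, from 12.2, 13.1, 14.5 and 18.0 CPM to 8.54, 9.84, 8.34 and 13.8 CPM, a log2 fold change of -0.51 (SE 0.21, edgeR adjusted p = 0.727) and overlapping libraries. The macula densa level on low salt with enalapril thus lay in the range of the control cells on that diet.

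H3f3a was 21.6 and 25.2 CPM in macula densa cells on control diet and 40.5 and 57.7 CPM on low salt with enalapril. Both libraries on low salt with enalapril were above both on control diet, and the log2 fold change of 1.07 (SE 0.23) did not pass (edgeR adjusted p = 0.218). In control cells the libraries overlapped, at 36.0 to 41.9 CPM on control diet and 32.4 to 37.4 CPM on low salt with enalapril (log2 fold change -0.19, SE 0.16, edgeR adjusted p = 0.965). The difference between the 2 diet effects was 1.25 (SE 0.28, edgeR adjusted p = 0.532). H3f3b moved less in macula densa cells, from 62.8 and 47.0 to 63.8 and 78.5 CPM (log2 fold change 0.38, SE 0.27, edgeR adjusted p = 0.635).

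Hist1h1c, the cluster gene with the highest CPM before any correction for length, was 46.9 and 26.1 CPM in macula densa cells on control diet and 67.4 and 86.9 CPM on low salt with enalapril. The groups did not overlap, and the log2 fold change of 1.08 (SE 0.35) did not pass (edgeR adjusted p = 0.312). In control cells it was 59.4, 41.0, 49.0 and 59.3 CPM on control diet and 62.5, 57.5, 103 and 72.6 CPM on low salt with enalapril, which overlap (log2 fold change 0.50, SE 0.24, edgeR adjusted p = 0.825). Its share of the cluster sum was 18.7% to 23.1% in macula densa libraries on control diet and 30.1% to 37.5% on low salt with enalapril; in control cells it was 19.6% to 30.1% and 26.9% to 46.4%. The linker histone genes as a family summed to 47.2 and 90.8 CPM and to 122 and 131 CPM in macula densa cells on the 2 diets. Without Hist1h1c the other 5 overlapped, at 21.1 and 43.9 against 43.7 and 54.8 CPM.

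Hist1h3f and Hist2h2ab, an H3 and an H2A gene of low level, were the next members without overlap by p. In macula densa cells Hist1h3f was 0 and 0.298 CPM on control diet and 2.25 and 0.854 CPM on low salt with enalapril (edgeR adjusted p = 0.398). Hist2h2ab was 0.104 and 0.252 CPM and then 1.29 and 0.743 CPM (edgeR adjusted p = 0.471). These levels are near the worth of 3 counts in the same libraries, 0.244 to 0.575 CPM. Hist1h2ac, the divergent neighbour of Hist1h2bc in the promoter window shown above, was 0.308 and 0.101 CPM on control diet and 3.26 and 0.164 CPM on low salt with enalapril. Only 1 of the 2 libraries was thus higher, and the neighbour overlapped between the diets where Hist1h2bc did not.

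Across the class, 14 of 29 cluster genes had a log2 fold change above 0 and 14 below it in macula densa cells, with a median of 0.00, and 7 of 11 variants were above 0, with a median of 0.38. The median over all genes tested was -0.02. Without overlap, 13 members were higher on low salt with enalapril and 5 lower, where 18.8% and 21.9% of all genes were. Hist1h2bc, singled out on this contrast, is among the 13. Those lower were Hist1h2bn, Hist1h4h, Hist2h2bb, Hist2h2be and Hist4h4. Hist1h4h, an H4 gene, was 9.80 and 10.5 CPM on control diet and 3.86 and 6.98 CPM on low salt with enalapril (log2 fold change -0.89, SE 0.53, edgeR adjusted p = 0.558), while Hist1h4d, another H4 gene, overlapped at 9.33 and 12.2 against 10.6 and 16.7 CPM. The H4 sums overlapped as well, at 24.6 and 32.1 against 24.3 and 30.3 CPM.

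**Figure D5:**
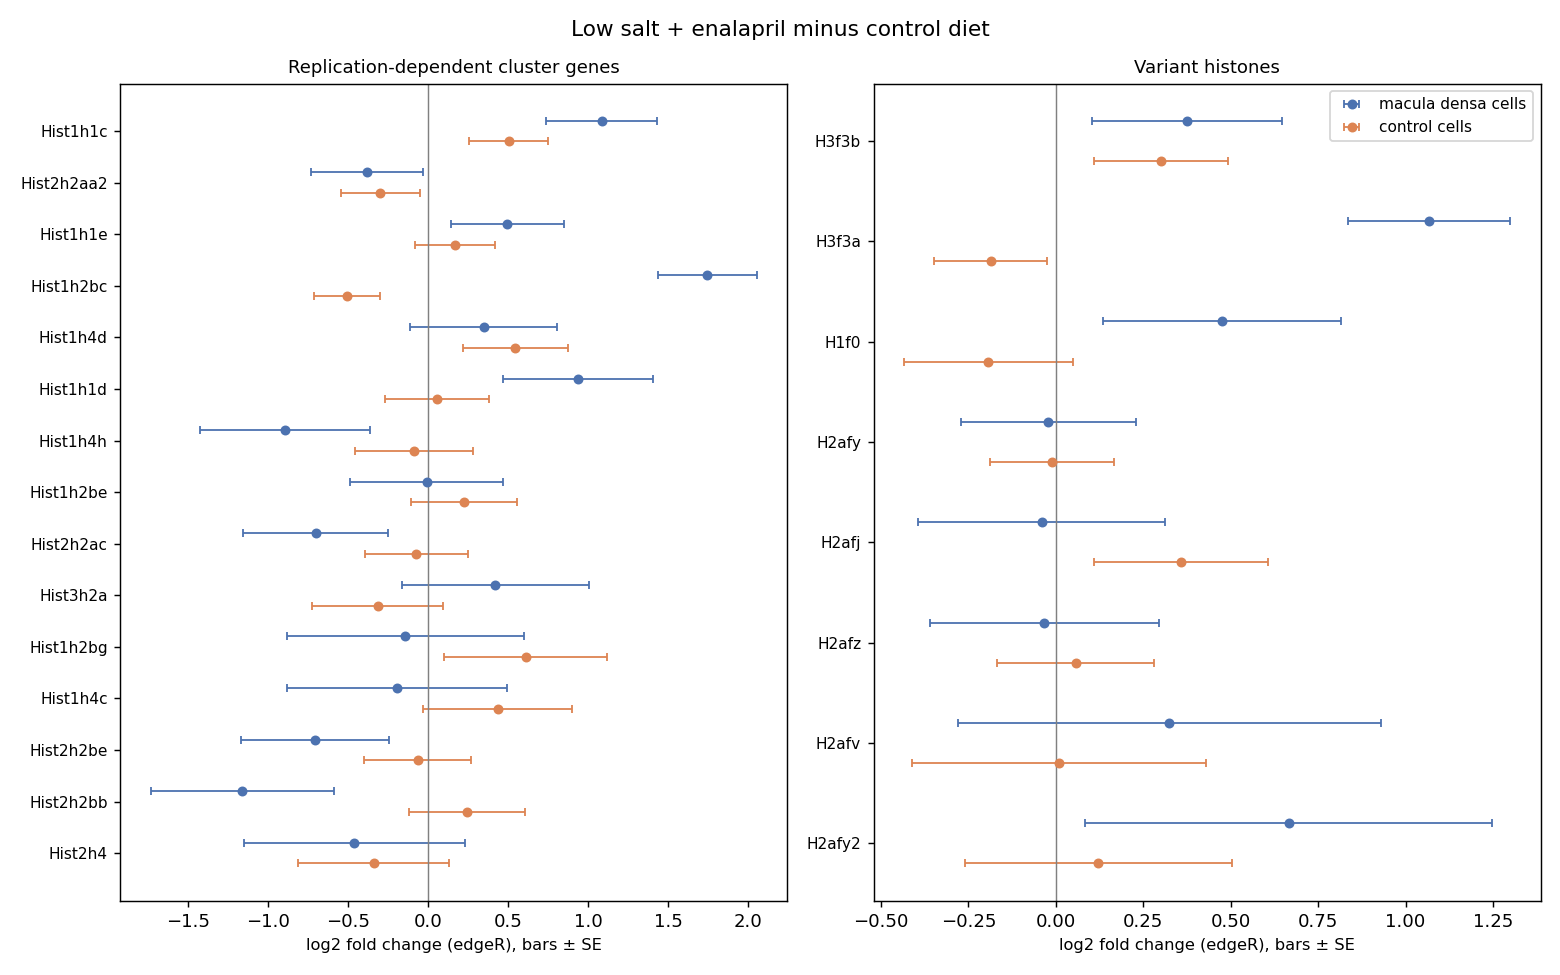
Log2 fold change of low salt with enalapril over control diet (x axis, edgeR, bars ± SE) in macula densa and control cells for the 15 cluster genes (left) and 8 variants (right) with a mean of at least 1.5 CPM, ordered by level. In macula densa cells Hist1h2bc stands at 1.74, Hist1h1c at 1.08 and H3f3a at 1.07; in control cells Hist1h2bc stands at -0.51.

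The summed levels put the single genes in scale. In macula densa cells the cluster sum was 171 ± 45.1 CPM on control diet and 228 ± 5.25 CPM on low salt with enalapril (SD, n = 2 each), and the variant sum 152 ± 18.0 and 209 ± 36.7 CPM. On the CPM scale neither sum overlapped between the diets. Without Hist1h1c the cluster sum overlapped, at 113 and 156 CPM against 145 and 157 CPM. In control cells the cluster sum was 203 ± 5.87 and 223 ± 33.6 CPM and the variant sum 171 ± 15.4 and 176 ± 20.3 CPM (SD, n = 4 each), all with overlap.

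The share of counts from nuclear protein-coding genes differed between the diets in macula densa cells, at 19.4% and 19.3% on control diet and 22.4% and 22.6% on low salt with enalapril. Scaled to those counts alone, a measure added after the data were seen for the single genes, the log2 ratios between the diets were smaller: 1.47 for Hist1h2bc, 0.79 for H3f3a and 0.80 for Hist1h1c, and 0.13 for the cluster sum and 0.17 for the variant sum in place of 0.41 and 0.46. Hist1h2bc, H3f3a and Hist1h1c did not overlap between the diets on that scale either, while the cluster sum and the variant sum both overlapped on it. Marker sums moved with diet in macula densa libraries too. The macula densa markers were at 2163 and 2425 CPM on control diet and 3078 and 2664 CPM on low salt with enalapril, and intercalated cell markers at 15.5 and 16.8 and then at 19.5 and 30.3 CPM, both higher without overlap. The 6 thick ascending limb markers summed to 3232 and 4095 CPM on control diet and 2269 and 2364 CPM on low salt with enalapril, and the 6 proximal tubule markers to 110 and 184 and then to 32.9 and 73.2 CPM, with none of them at 0 in these libraries. Endothelial markers summed to 144 and 19.5 CPM and then to 12.1 and 9.35 CPM, and podocyte markers to 138 and 14.9 CPM and then to 13.2 and 4.43 CPM. Their part in the result was not tested, and in bulk sorted cells fewer cells of a type and less RNA per cell cannot be told apart.

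In control cells no member was called between the diets, where 0.00705% of all genes, a single gene, was. At an unadjusted edgeR p under 0.05 there was 1 member, Hist1h2bc, lower and 0 higher, where 2.44% and 4.01% of all genes were. No member was without overlap, against 2.09% of all genes in each direction. For the difference between the diet effects no member and no gene was called (0%). Hist1h2bc had a difference of 2.25 (SE 0.37), again as a description, and at an unadjusted edgeR p under 0.05 there were 3 members higher and 1 lower, where 3.48% and 3.55% of all genes were. Hist1h2bc is among the 3 members higher, so this count is a description too.

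Several cluster genes were at 0 in macula densa cells. Rounded to whole counts, 9 cluster genes and 1 variant were at 0 in all 4 macula densa libraries, and all of them were low in control cells. Unrounded, 2 of these cluster genes had an estimate above 0.01 counts in some macula densa library, Hist1h2ap (up to 0.449) and Hist1h3b (up to 0.0102). Hist1h2bk, an H2B gene chosen for mention after its values were seen, was 0.599 to 1.14 CPM in the 4 control-cell libraries on control diet and near 0 in every other library. It is one of the genes too low to test. In all 12 libraries a rounded count above 0 was found for 20 cluster genes and 11 variants.

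Genes that act on histones and on S phase were taken from 3 lists that share no gene with the members. Of 19 genes for 3' end processing and decay of histone mRNA in the table, 17 were tested, and none was called on control diet or between the diets. On low salt with enalapril Eri1, the nuclease that trims histone mRNA ends, was higher in macula densa cells by a log2 fold change of 1.47 (edgeR adjusted p = 0.0396). Slbp, which encodes the stem-loop binding protein, was not called in any comparison. Of 27 histone chaperones tested, Ipo4, an importin that carries histones, was lower on low salt with enalapril (log2 fold change -0.95, edgeR adjusted p = 0.0470). Averaged over both diets, Nap1l1, an H2A-H2B chaperone (-0.77, edgeR adjusted p = 0.0334), and Cabin1, a subunit of the H3.3 chaperone complex HIRA (-0.49, edgeR adjusted p = 0.0427), were lower. The 2 lists thus had 1 of 17 and 1 of 27 genes called on low salt with enalapril, where 7.27% of all genes were. Averaged over both diets they had 0 of 17 and 2 of 27, where 21.3% of all genes were. These shares were not above those of all genes.

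Of 31 S phase and cell cycle genes, 19 were tested. None was called on control diet, 2 on low salt with enalapril (1 in each direction) and 4 averaged over both diets (1 higher and 3 lower), where 6.61%, 7.27% and 21.3% of all genes were. Mcm2 of the replicative helicase was higher on low salt with enalapril (log2 fold change 1.63, edgeR adjusted p = 0.0211), and Cdkn1a, which encodes the cell cycle inhibitor p21, was lower, with 0 and 2 counts in macula densa libraries and 15 to 113 in control-cell libraries (edgeR adjusted p = 0.0303). Averaged over both diets, Prim1, a DNA primase subunit, was higher (1.30, edgeR adjusted p = 0.00926), and Mcm3 of the same helicase (-1.94, edgeR adjusted p = 0.0143), Cdkn1a (edgeR adjusted p = 0.00973) and E2f1 (edgeR adjusted p = 0.0291) were lower. E2f1 had 0 to 2 counts in macula densa libraries and 0 to 26 in control-cell libraries, too few for a fold change. Cdkn1a had 6 and 21 counts in macula densa libraries on control diet. E2f1 and Cdkn1a passed the filter on low counts only through control cells, the group where they are high. Their calls are therefore given as a description. Mcm2 was not called on control diet (log2 fold change -0.35, edgeR adjusted p = 0.634) or averaged over both diets (0.64, edgeR adjusted p = 0.102). The summed level of the list was 41.2 and 51.3 CPM in macula densa cells on control diet, below the 57.0 to 63.6 CPM of control cells, and 52.9 and 68.7 CPM on low salt with enalapril, which overlaps the 58.1 to 67.2 CPM of control cells. None of the 3 lists held a gene called between the diets in either cell population.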

How the data were processed

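Per the labels' protocols, libraries of all samples were prepared together from total RNA of sorted cells with a strand-keeping kit. STAR 2.61, Partek and mm10 are named in the submitters' processing notes, without their roles; the counting and its use of strand are not given in the sources used here. The deposited values are expected counts (estimated counts) per gene from the authors' pipeline, 16.1% of them not whole, and were rounded for testing. Positions of all 74 members equalled GENCODE M21 on GRCm38, and 0 sample columns were left unmapped.

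One edgeR 4.0.16 quasi-likelihood fit in R 4.3.3 covered all 12 libraries, with TMM scaling, filterByExpr (minimum count 10, total 15), a coefficient per group and Benjamini-Hochberg adjustment over 14180 genes at 0.05. CPM are counts over TMM-scaled totals. The fit was tested on simulated data. Alternatives were other scalings and filters, DESeq2 1.42.0, fits of only the groups compared, replicate blocks and leaving out each library.

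Members, lists and rules were chosen with earlier results of these data known. Named were members past the threshold, the 8 highest in each class, Hist1h2bc, the 5 smallest p without overlap in each diet comparison, other members to account for all, and at most 4 list genes past the threshold per direction. Lists of 12 other cell types' or macula densa markers were checked as sums. Intervals at low counts cover counting error only, and reads are not independent molecules. Promoter sequences are from RefSeq, and stem-loop and coding sequences from GENCODE transcripts.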

Additional observations from a re-analysis of the deposited data

Results flagged for a closer look

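Hist2h2aa2 stood at 43.0 CPM in control cells on low salt with enalapril, replicate 4 (5.43 on the log2 scale), apart from the other 3 libraries of the group, which lay between 4.71 and 4.80. It was the single flagged case among 38 groups of 4 libraries looked at (19 members in the 2 control-cell groups), where chance flags about 1 in 20.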

How the results depend on the processing

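The call of Hist1h2bc in macula densa against control cells held in each of 21 alternatives on control diet and 20 averaged over both diets. All of these fits draw on the macula densa libraries on which the gene was singled out, so they are not independent of that choice. The count of members called on control diet, 1, was 2 with DESeq2 size factors, with the description number as replicate block and with a filter at a mean of 5 CPM, and 3 with the DESeq2 Wald test (H3f3a, Hist1h2bc and Hist2h3b). Leaving out each library gave 1 to 2, with 2 without control cells on control diet replicate 4. H3f3a passed in these 5 fits (edgeR or DESeq2 adjusted p from 0.00286 to 0.0481). Hist2h3b passed the filter on low counts only through control cells, so its call in the Wald test is a description. The count averaged over both diets, 2, was 5 with no filter, 1 with a mean of at least 5 CPM, 1 with either number as replicate block, and 1 to 3 leaving out each library, with 3 without macula densa on low salt with enalapril replicate 1 and 1 without control cells on low salt with enalapril replicate 2 or 4, macula densa on control diet replicate 1 or 2, or macula densa on low salt with enalapril replicate 2. With the DESeq2 Wald test, 2 members (H3f3a and Hist1h2bc) were called between the diets in macula densa cells, in place of 0 (93 genes in all). The same 2 were called for the difference between the diet effects, in place of 0 (13 genes in all). Hist1h2bc was singled out on the diet contrast of macula densa cells, so its part in these counts is a description and not a test. Counts of 0 on low salt with enalapril and between the diets in control cells stayed 0 in the alternatives run. Hist1h2bc on low salt with enalapril turned from 0.20 to -0.012 with the description number as replicate block, and H3f3a averaged over both diets from -0.11 to 0.082 with library totals alone; the cause was not tested.

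Correlations of deviations from group means were 0.227, -0.018, 0.075 and -0.037 for libraries with the same description number. Each macula densa group has 2 libraries, whose deviations mirror each other, so these values cannot show whether the numbers pair libraries. The labels do not say what the description number marks. With library totals alone the median log2 fold change of all genes on control diet moved from -0.05 to 0.12, and that on low salt with enalapril from -0.06 to 0.16, and calls split 542 higher and 328 lower, and 736 and 392, in place of 382 and 556, and 446 and 585. Averaged over both diets the split was 1827 and 1450 in place of 1061 and 1966. Without members that have a value that is not exactly whole, 3 cluster genes were left, and the log2 ratio of the cluster sum on control diet was 0.65 in place of -0.24. Depth limits genes near 3 counts.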
